A study of Mus musculus with 12 samples.

Results

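Cyp2a4, a cytochrome P450 that hydroxylates testosterone and is normally abundant in the female mouse liver, was read from 0 to 774 times in 12 male livers, and 4 of the 12 carried nearly all of its counts. The livers described here are these 4, VDD_2, VDD_4, VDD_5 and VDD_6, chosen by their raw Cyp2a4 counts (at least 100 on the reverse strand) and set beside the other 8, which are VDD_1, VDD_3 and the 6 VDS livers. Every mouse was a male C57Bl/6J offspring killed at 16 weeks of age, and 1 RNA-seq library was made from each liver. VDD mice (n = 6) were born to dams fed a vitamin D deficient diet before mating and through pregnancy, with added calcium gluconate, and VDS mice (n = 6) to dams fed the nutrient-matched sufficient diet. All dams received the sufficient diet after delivery, as did all offspring after weaning, and the labels do not say which mice were littermates.

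Since Cyp2a4 chose the livers, its counts and everything else that separates the 4 from the 8 are descriptions with no test, and tests are given only for VDD against VDS. All 4 livers were VDD, so prenatal diet and Cyp2a4 cannot be told apart except through VDD_1 and VDD_3, and the place of those 2 livers is given for the genes described most fully. Where a gene was named for a gap between the 4 and all other livers, that choice itself keeps those 2 livers apart from the 4. The study's supplement records a liver weight for VDD_4, VDD_5, VDD_6 and VDS_3 to VDS_6 and none for the other 5 mice. VDD_2 was therefore the only one of the 4 in the set without a weight, where VDD_1 and VDD_3 also lie.

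As background, much of the adult mouse liver transcriptome differs between the sexes, because growth hormone is secreted in pulses in males and more evenly in females, and Stat5b carries that pattern to the hepatocyte genome. Male livers express major urinary proteins (Mup), secreted carriers of pheromones, together with male-type P450 enzymes, while Cyp2a4, Cyp2b9 and Cyp3a41 belong to the female pattern. Hepatocytes also differ along the lobule, with glutamine synthetase (Glul) and Cyp2e1 around the central vein and urea and serine metabolism nearer the portal tract.

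The 300-base promoter windows below, from 250 bases before to 50 bases after a RefSeq start site (RefSeq, GRCm38.p6), are shown for the gene that chose the livers, for the genes with the largest gaps upward, and for a pair of Mup genes that fell together. Capitals mark matches, on either strand, to 5 motifs: TATAAA, the Stat5 palindrome TTCNNNGAA, the E-box palindrome CACGTG, the Tcf core CTTTGA and the Ahr core GCGTG.
Cyp2a4, chr7:26306942-26307241, + strand: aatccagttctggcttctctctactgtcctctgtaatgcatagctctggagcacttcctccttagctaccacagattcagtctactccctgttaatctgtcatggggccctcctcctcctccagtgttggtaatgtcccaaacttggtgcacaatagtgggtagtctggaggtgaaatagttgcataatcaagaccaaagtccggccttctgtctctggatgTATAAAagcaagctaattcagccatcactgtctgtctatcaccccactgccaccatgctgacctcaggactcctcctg
Lrtm2, chr6:119330717-119331016, - strand: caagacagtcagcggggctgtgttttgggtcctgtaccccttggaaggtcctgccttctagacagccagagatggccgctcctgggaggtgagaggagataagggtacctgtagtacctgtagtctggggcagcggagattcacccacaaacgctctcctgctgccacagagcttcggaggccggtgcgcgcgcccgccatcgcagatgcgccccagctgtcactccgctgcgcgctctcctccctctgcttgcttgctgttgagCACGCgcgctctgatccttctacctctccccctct
Tinag, chr9:77045732-77046031, - strand: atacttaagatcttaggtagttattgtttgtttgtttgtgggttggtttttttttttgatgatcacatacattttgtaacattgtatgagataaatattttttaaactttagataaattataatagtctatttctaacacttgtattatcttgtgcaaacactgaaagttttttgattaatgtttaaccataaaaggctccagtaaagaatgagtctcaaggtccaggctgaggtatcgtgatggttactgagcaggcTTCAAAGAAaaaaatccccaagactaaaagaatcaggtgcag
Mup15, chr4:61439655-61439954, - strand: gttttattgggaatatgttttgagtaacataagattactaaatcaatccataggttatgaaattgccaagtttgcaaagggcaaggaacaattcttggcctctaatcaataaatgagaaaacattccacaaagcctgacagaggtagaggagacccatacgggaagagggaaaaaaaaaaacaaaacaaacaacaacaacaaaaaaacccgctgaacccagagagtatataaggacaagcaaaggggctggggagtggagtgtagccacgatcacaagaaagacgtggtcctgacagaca
Mup19, chr4:61782175-61782474, - strand: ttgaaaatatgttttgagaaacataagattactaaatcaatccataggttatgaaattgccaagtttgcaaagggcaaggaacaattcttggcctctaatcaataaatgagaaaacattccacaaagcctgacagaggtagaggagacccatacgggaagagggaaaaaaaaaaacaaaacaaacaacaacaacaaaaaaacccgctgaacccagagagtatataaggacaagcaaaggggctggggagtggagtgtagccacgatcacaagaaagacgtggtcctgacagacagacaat

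The Cyp2a4 window held TATAAA, which 13.1% of the 20296 windows in the table held. The Tinag window held TTCNNNGAA and CTTTGA, and the Lrtm2 window held GCGTG, found in 8.02%, 15.4% and 36.8% of all windows. None of the 5 motifs was in the windows of Mup15 and Mup19, which shared an unbroken run of 275 identical bases. Over the genes described below as higher in the 4 livers, 380 had a window, and TTCNNNGAA was in 5.26% of them, against 6.91% of the 333 windows of the lower genes and 6.86% of the 9589 windows of all genes tested. CTTTGA was in 11.6%, 14.1% and 12.2% of the same windows, TATAAA in 10.3%, 8.41% and 7.34%, CACGTG in 6.84%, 11.7% and 10.2%, and GCGTG in 49.5%, 41.4% and 51.3%.

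Cyp2a4 (ENSMUSG00000074254.4, chr7:26307169-26315088 on GRCm38) had 774, 527, 505 and 541 raw counts in VDD_2, VDD_4, VDD_5 and VDD_6. It had 2 in VDD_1, 0 in VDD_3 and 0, 1, 0, 8, 3 and 2 in VDS_1 to VDS_6, so the liver just inside the limit of 100 counts held 505 and the one just outside held 8. As CPM, counts scaled to library size with normalization by the trimmed mean of M-values, this was 25.2 to 40.4 in the 4 livers and at most 0.416 in the other 8. Lrtm2, a leucine-rich repeat membrane protein, had 208, 113, 88 and 130 raw counts in the same 4 livers, 2 in VDS_2, 1 in VDS_4 and 0 in the other 6. Frmd5, a FERM-domain protein, had 17, 22, 42 and 39 counts in the 4 livers, 1 in VDD_3 and 0 in the remaining 7, and its mean was under the minimum of 12 counts used for all other genes, so it entered no count below. For each of the 3 markers the 4 livers stood above the other 8 without overlap.

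**Figure D1:**
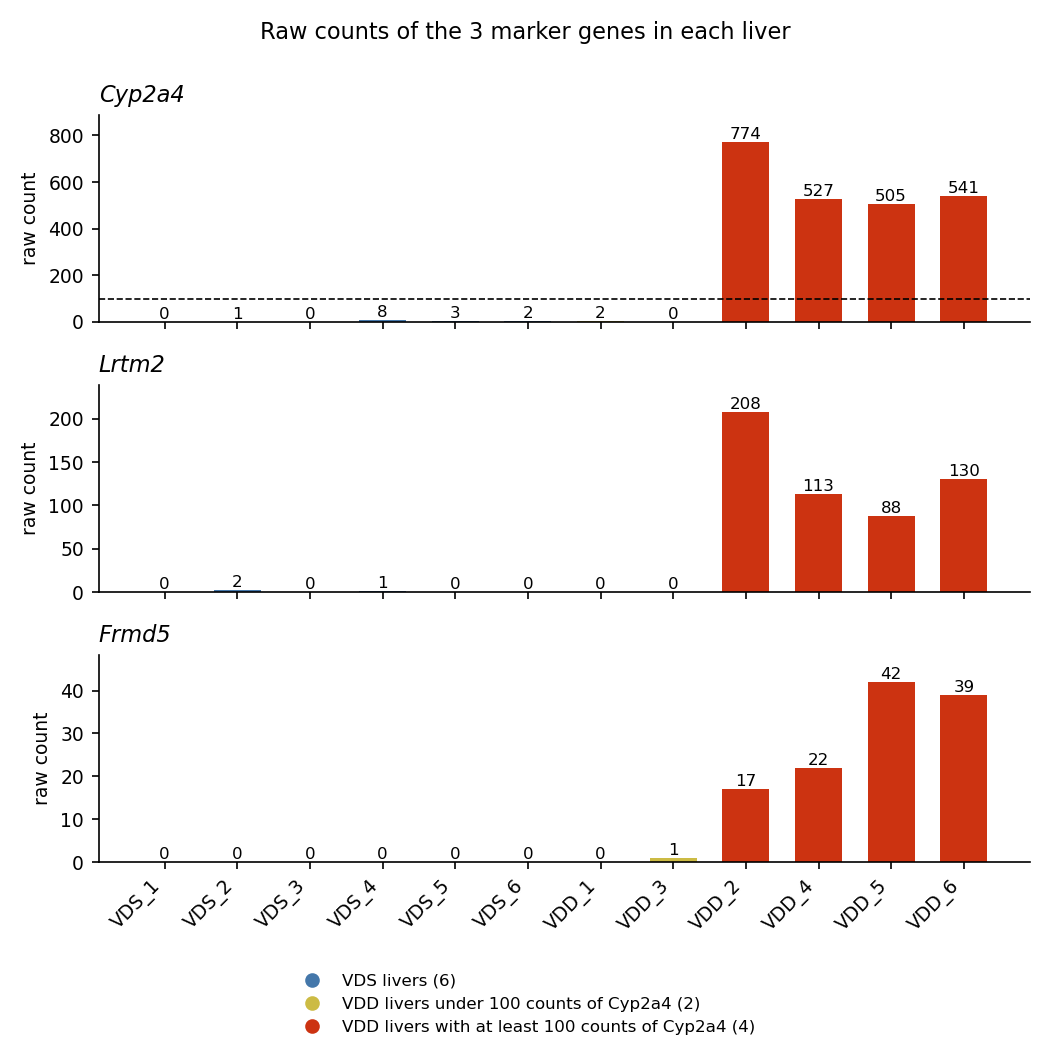
Raw reverse-strand counts (vertical axes, linear) of Cyp2a4, Lrtm2 and Frmd5 in each of the 12 livers, with VDS livers in blue, VDD_1 and VDD_3 in yellow and the 4 chosen livers in red; the dashed line is the limit of 100 counts. Cyp2a4 lies between 505 and 774 in the 4 livers and at or under 8 in the rest.

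The measured relatives of Cyp2a4 overlapped between the 4 and the 8. Cyp2a5, the coumarin hydroxylase whose sequence is nearly the same, was at 162, 355, 234 and 271 CPM in the 4 livers, 139 and 140.5 CPM in VDD_1 and VDD_3 and 119 to 499 CPM in the VDS livers (median 376). All 4 values lay inside the range of the 8. Cyp2a12 and Cyp2a22 overlapped too, with differences of medians, as log2 CPM of the 4 minus the 8, of 0.06 and 0.75. Fragments that align equally well to several places, 6.69% to 8.92% of each library, are not counted for any gene, so the levels of Cyp2a4, Cyp2a5 and of the Mup, Cyp2c and Gst genes below are uncertain where copies are alike.

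The libraries held 25897868 to 36403413 fragments and 14275793 to 20815066 counts in genes, and a gene with a mean count near 12 is measured imprecisely at this depth. VDS_6 had the largest share of fragments outside genes (11.1%, against 2.52% to 4.94% in the others), and VDD_2 the largest normalization factor (1.14). The 4 Y-linked genes measured were read in all 12 livers, and Xist, the transcript of the inactive X chromosome, had at most 1 count in 10 of them, 5 in VDS_4 and 24 in VDS_6. Together, Xist, Tsix and the Y-linked genes summed to 85.2 to 106 CPM in the 4 livers and 92.6 to 109 CPM in the 8. Albumin, apolipoproteins and other hepatocyte products summed to 112939 to 125579 CPM in the 4 livers and 100605 to 133415 CPM in the 8.

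Leaving Cyp2a4 out, 12452 genes had a mean of at least 12 counts. The mean was taken over all 12 livers, so a gene near 0 in the 8 reached it only through the 4. All 4 livers lay above all of the other 8 for 505 genes (4.06% of those tested) and below all of them for 429 genes (3.45%), and these are called higher and lower from here on. The higher genes differed more: the median difference was 1.03 on the log2 scale over the 505 genes and -0.48 over the 429, and 262 higher but 110 lower genes differed by more than 1. VDD_2 was the highest of the 4 for 337 of the 505 higher genes, against 65, 63 and 40 for VDD_4, VDD_5 and VDD_6, and the lowest of the 4 for 218 of the 429 lower genes. The difference exceeded 1 in size in both sets of mice (with and lacking a recorded weight) for 221 higher and 82 lower genes, although the set lacking a weight holds only VDD_2 of the 4. Its direction in each set is fixed, because these genes do not overlap. In a piece of whole liver, fewer cells of a type and less RNA per cell cannot be told apart, for every gene named here.

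The 12 genes with the largest gaps upward, from the highest of the 8 to the lowest of the 4, had varied roles. Lrtm2 led them, at 10.9, 7.76, 4.63 and 6.06 CPM in VDD_2, VDD_4, VDD_5 and VDD_6. Tinag, a glycoprotein of basement membranes, was at 2.14, 2.2, 2.79 and 2 CPM in the 4 livers, 0 and 0.0753 CPM in VDD_1 and VDD_3, 0.208 CPM in VDS_5 and 0 in the other VDS livers. No fold is given for these genes, because most of the 8 livers are at 0. Gpnmb, a glycoprotein of lipid-laden macrophages, was at 45.4, 18.6, 16.8 and 7.41 CPM in the 4 livers, 0.379 and 1.43 CPM in VDD_1 and VDD_3 and 0.0687 to 0.592 CPM in VDS (median 0.247). VDD_3 exceeded every VDS liver for Gpnmb, while the lowest of the 4 was still well above it. Trem2, the lipid-sensing receptor of the same macrophages, was at 8.4, 3.36, 3.1 and 2.66 CPM in the 4, 0.189 and 0.301 CPM in VDD_1 and VDD_3 and 0.0694 to 0.885 CPM in VDS.

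Enzymes and membrane proteins made up much of the rest. Lipoprotein lipase (Lpl), which releases fatty acids from circulating triglyceride, was at 139, 84.6, 87.1 and 97.5 CPM in the 4 livers, 12.4 and 10.02 CPM in VDD_1 and VDD_3 and 10.5 to 19.8 CPM in VDS, a 6.47-fold ratio of medians. The desaturase Scd2 was at 49.9, 45.4, 42.7 and 44.2 CPM in the 4 livers and 4.79 to 11.9 CPM in the 8, with little difference among the 4. Mthfd1l, which makes formate in the mitochondrial folate pathway, was at 6.58, 7.83, 5.84 and 5.04 CPM in the 4 and 0.0694 to 1.05 CPM in the 8. The neural cell adhesion molecule Ncam1 ranged over 4.99 to 10.1 CPM in the 4 and 0.0715 to 1.25 CPM in the 8, elastin (Eln) over 12.7 to 26.6 and 1.45 to 4.36 CPM, and the P450 enzyme Cyp1b1 over 3.84 to 6.52 and 0.0715 to 1.04 CPM. Inava, an innate immune adaptor, was at 1.98, 3.02, 2.16 and 2.24 CPM in the 4 and 0 to 0.494 CPM in the 8, where it had at most 10 raw counts.

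**Figure D2:**
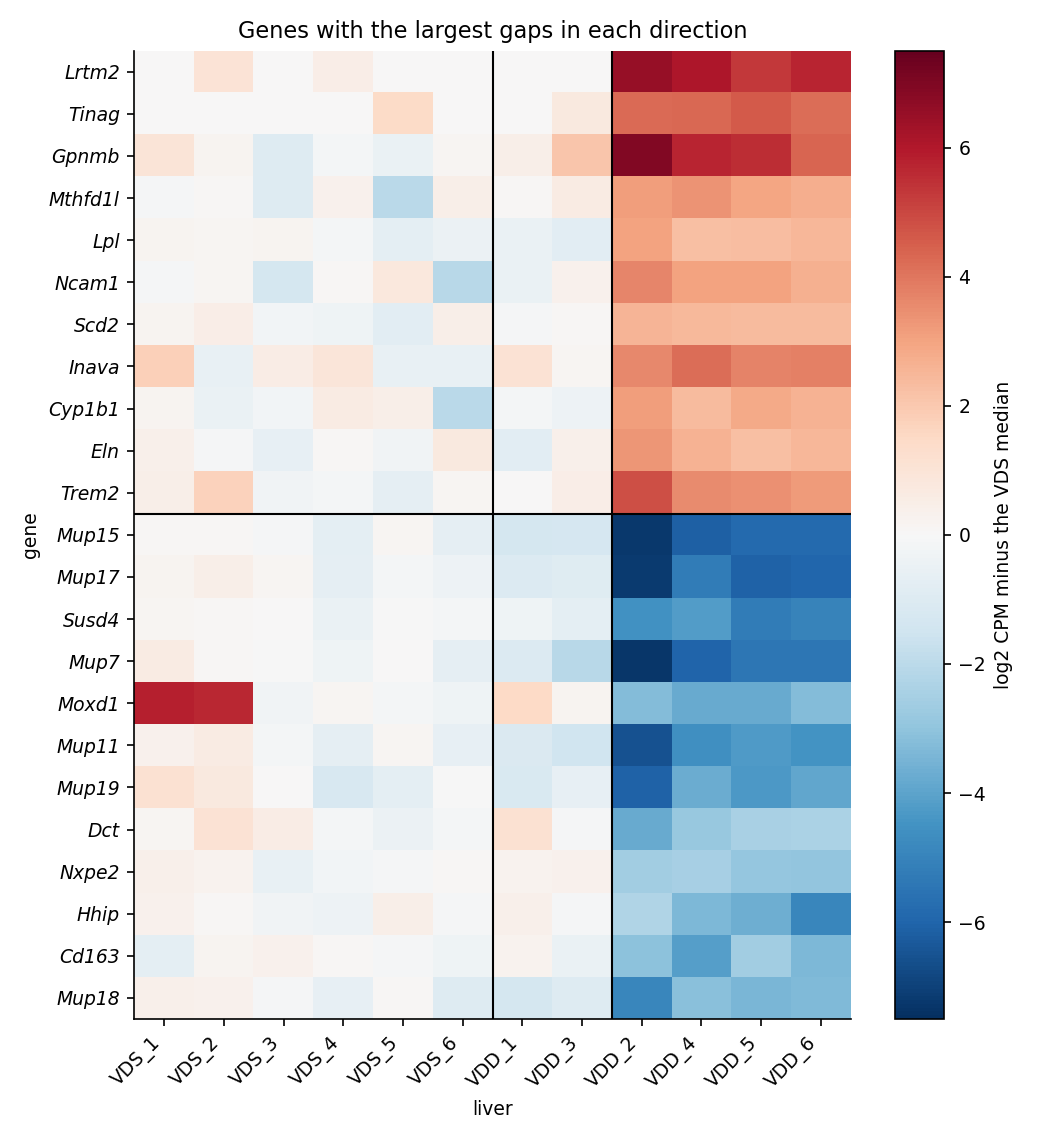
Log2 CPM minus the median of the VDS livers (colour, from -7.27 to 6.97) for 11 of the 12 genes with the largest gap upward and the 12 with the largest gap downward (one line each) in the 12 livers (columns). The 4 livers on the right stand apart in both blocks, VDD_1 and VDD_3 are mostly near VDS in the upper block, where VDD_3 exceeds VDS for Gpnmb and Mthfd1l, both are below the VDS median for the Mup genes, and Moxd1 is high in VDS_1 and VDS_2 alone.

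Downward, 6 of the 12 largest gaps were Mup genes. Mup7 (chr4:60066469-60070475) was at 6.63, 16.1, 23.9 and 24.4 CPM in VDD_2, VDD_4, VDD_5 and VDD_6, at 505 and 242 CPM in VDD_1 and VDD_3, and at 652 to 1605 CPM in VDS (median 1043). Mup15 was at 0.835, 1.99, 2.47 and 2.38 CPM in the 4, 59 and 61 CPM in VDD_1 and VDD_3 and 86.9 to 159 CPM in VDS, and Mup17 at 1.3, 5.22, 3 and 3.17, 101 and 107 and 126 to 272 CPM in the same order. For these 3 genes VDD_1 and VDD_3 lay below every VDS liver and far above the 4. Mup11, Mup18 and Mup19 had medians 18.5, 9.55 and 16.4 times lower in the 4 than in the 8. Of 17 Mup genes tested, 0 were higher and 13 lower, against 3.45% of all genes lower, with a median difference of -3.02, and because these genes have alike copies in 1 cluster on chromosome 4, their separate levels are uncertain.

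The other genes with the largest gaps downward had different roles. Susd4, a sushi-domain protein that restrains complement, was at 1.51, 1.99, 0.894 and 1.07 CPM in the 4 livers, 30.6 and 22.6 CPM in VDD_1 and VDD_3 and 27.5 to 42.7 CPM in VDS. Hhip, the inhibitor that binds hedgehog ligands, was at 0.887, 0.343, 0.263 and 0.0466 CPM in the 4 and 3.64 to 6.46 CPM in the 8. Cd163, the haptoglobin-haemoglobin scavenger receptor of resident macrophages, was at 1.98, 0.892, 2.84 and 1.63 CPM in the 4, 21.3 and 12.7 CPM in VDD_1 and VDD_3 and 10.8 to 21.7 CPM in VDS. Dct, dopachrome tautomerase, ranged over 0.157 to 0.606 CPM in the 4 and 2.71 to 8.4 CPM in the 8, and Nxpe2 over 3.22 to 4.67 and 17.8 to 33.9 CPM. Moxd1, a monooxygenase related to dopamine beta-hydroxylase, was nearly absent from the 4 livers (0 to 0.0522 CPM), but the 8 were split, with 90.8 and 79.4 CPM in VDS_1 and VDS_2 and 1.14 to 4.42 CPM in the other 6.

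Male-biased genes were lower in part, and 1 female-biased gene besides Cyp2a4 was higher. Of the female-biased list without Cyp2a4, 9 of 24 genes were expressed enough to test, 1 was higher, 0 were lower, and the median difference was -0.02. The 1 higher gene was Ntrk2, a neurotrophin receptor, at 61.4, 41.1, 32.7 and 32.5 CPM in the 4 livers, 20.3 and 12.3 CPM in VDD_1 and VDD_3 and 1.99 to 22.4 CPM in VDS. Without Cyp2a4, the summed level of the female-biased list was 188 to 266 CPM in the 4 livers, 215 and 233 CPM in VDD_1 and VDD_3 and 144 to 233 CPM over the 8, so the ranges overlapped. Several defining female genes were near 0 in all livers: Sult2a1 had 0 raw counts in 11 livers and 4 in VDS_6, Cyp3a41a had at most 1 count, and Cyp2b9 3 to 32 in the 4 livers and 0 to 19 in the 8. Of 28 male-biased genes, 0 were higher and 10 lower, against 4.06% and 3.45% of all genes (median difference -0.48), and 5 of the 10 were Mup7, Mup11, Mup12, Mup17 and Mup21, members of the cluster above. Hsd3b5, a steroid dehydrogenase, Cyp2d9, Slco1a1, Susd4 and Moxd1 were the others, with differences of -2.05, -1.46, -1.21, -4.70 and -3.70. The male genes Elovl3, Mup20 and Cyp4a12a overlapped, with differences of -0.02, 0.14 and -0.19. Elovl3, a fatty acid elongase, was not uniform among the 4, at 13.8, 335, 326 and 241 CPM. The summed level of the male-biased list was 7882 CPM in VDD_2 but 18772 to 22315 CPM in VDD_4, VDD_5 and VDD_6. It was 10180 and 11118 CPM in VDD_1 and VDD_3 and at most 21219 CPM in VDS, so the 3 VDD livers with no recorded weight were the lowest VDD livers.

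Of 16 genes of growth hormone and Stat5 signalling, 0 were higher and 0 lower, against 4.06% and 3.45% of all genes, a background at which less than 1 gene of 16 would stand apart in each direction. There was 1 higher without VDD_2 and 1 lower without VDS_6. Igf1, the main growth hormone product of the liver, was at 563, 776, 916 and 689 CPM in the 4 livers and 538 to 674 CPM in the 8, and Igfbp3, its carrier, at 17 to 22.5 and 15.01 to 27.1 CPM. Socs2, a feedback inhibitor induced through Stat5, ranged over 12.4 to 19.6 CPM in the 4 and 3.95 to 43.3 CPM in the 8, with its highest value in VDD_3.

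**Figure D3:**
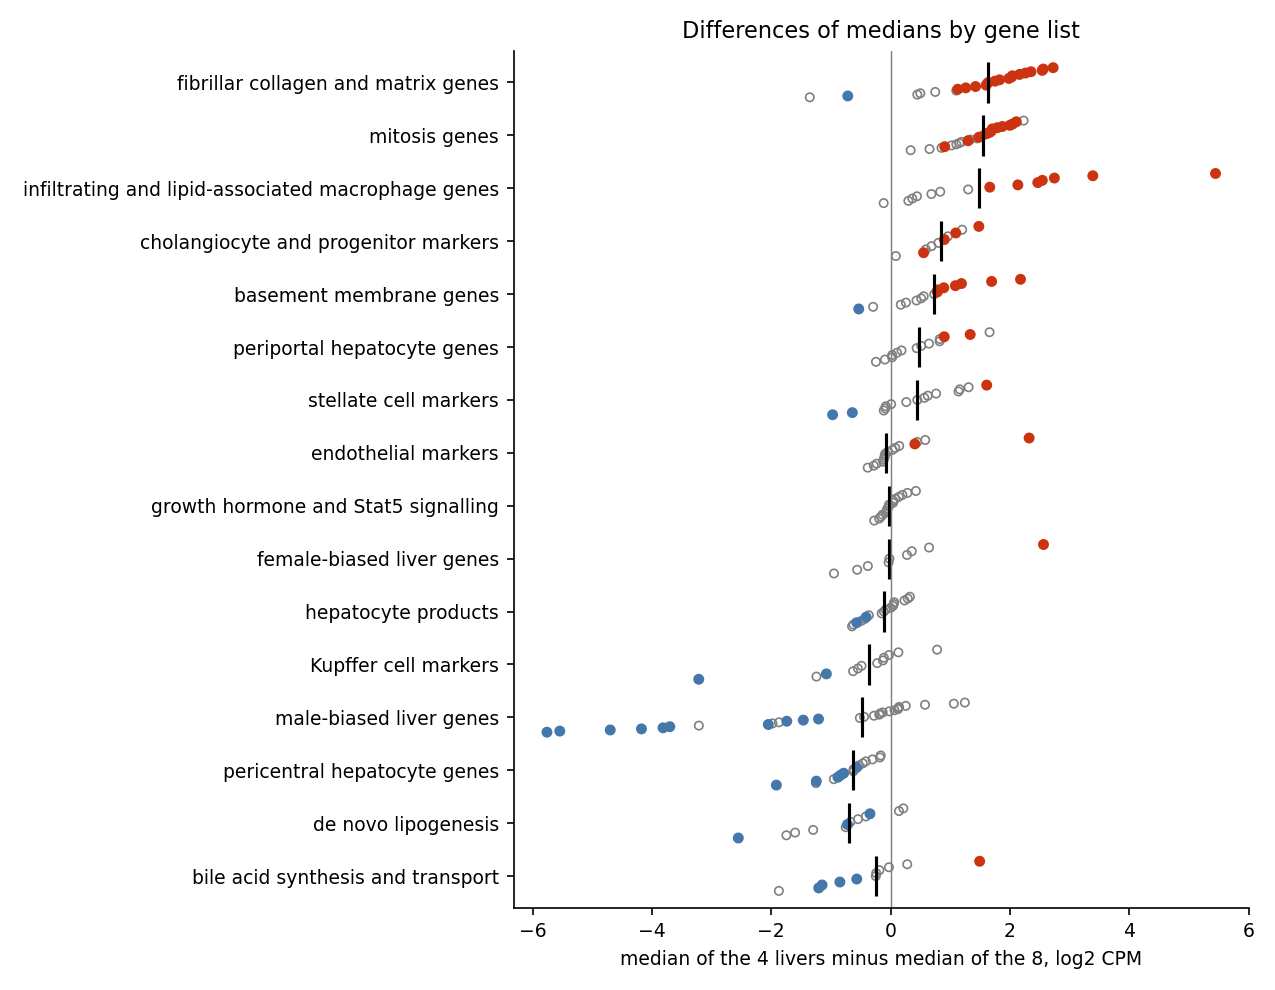
Difference between the median log2 CPM of the 4 livers and that of the other 8 (horizontal axis) for each tested gene of 16 lists, Cyp2a4 left out; filled points are genes whose groups do not overlap (red higher, blue lower), open points overlap, and black bars are list medians. Matrix, mitosis and macrophage lists lie mostly to the right with medians of 1.63, 1.55 and 1.48, and the growth hormone list is centred near 0. Some mitosis and macrophage genes reached the minimum count only through the 4, which limits the medians of those lists.

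Part of the pericentral hepatocyte genes were lower. Of 16 tested, 0 were higher and 6 lower, against 3.45% of all genes, with a median difference of -0.62, and their summed level was 3644 to 4631 CPM in the 4 livers and 8221 to 10487 CPM in the 8 without overlap. Glul was at 392, 313, 298 and 261 CPM in VDD_2, VDD_4, VDD_5 and VDD_6, at 1309 and 1568 CPM in VDD_1 and VDD_3 and at 918 to 1477 CPM in VDS. The median was 3.8 times lower in the 4, and VDD_3 held the highest level of all 12 livers. Cyp2e1, which oxidizes ethanol and other small molecules, was at 2130, 2527, 2098 and 2243 CPM in the 4, 4220 and 6037 CPM in VDD_1 and VDD_3 and 4633 to 6542 CPM in VDS. Cyp1a2, an Ahr target, behaved otherwise: it was at 148, 309, 270.2 and 292 CPM in the 4 and 307 and 361 CPM in VDD_1 and VDD_3, so that all 6 VDD livers were below the VDS livers (462 to 861 CPM). The Wnt targets Axin2, Lgr5 and Tbx3 overlapped between the 4 and the 8, with differences of -0.30, -0.18 and -0.95.

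Periportal genes showed 2 of 14 higher and 0 lower, against 4.06% and 3.45% of all genes (median difference 0.47). These were Aldh1b1, a mitochondrial aldehyde dehydrogenase, at 243, 181, 159 and 205 CPM in the 4 and 58.9 to 101 CPM in the 8, and serine dehydratase (Sds), at 204 to 345 and 77.1 to 167 CPM. Without VDD_2, 5 of the 14 were higher and 8 of the 16 pericentral genes lower.

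Drug-metabolizing genes that respond to the nuclear receptors Car and Pxr mostly overlapped, with 2 of 19 higher and 3 lower, against 4.06% and 3.45% of all genes. Cyp2c37, Cyp2c50 and Cyp2c54 were lower, and Cyp2c37 was at 8.72, 27.9, 21.7 and 23 CPM in the 4, 68.2 and 75.5 CPM in VDD_1 and VDD_3 and 74.9 to 222 CPM in VDS. VDD_1 lay just below the lowest VDS liver for this gene, VDS_2, and VDD_3 just above it, while the 4 were far lower. The glutathione transferases Gsta1 and Gstm3 were higher, and Gsta1 was at 5.12, 7, 5.42 and 10.9 CPM in the 4 and 0.151 to 4.01 CPM in the 8. Cyp2b10, the classic Car target, was at 1.77, 5.7, 4.94 and 4.43 CPM in the 4, 0.252 and 0.0753 CPM in VDD_1 and VDD_3 and 0 to 3.3 CPM in VDS, and overlapped because VDS_3 exceeded VDD_2. Without VDD_2 5 of these 19 genes were higher, and without VDD_4 5 were lower.

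Part of the extracellular matrix genes were higher in the 4 livers. Of 23 fibrillar collagen and matrix genes, 16 were higher and 1 lower, against 4.06% and 3.45% of all genes, with a median difference of 1.63. Col1a1, the main chain of type I collagen, was at 169.8, 93.4, 62.2 and 62.7 CPM in VDD_2, VDD_4, VDD_5 and VDD_6, at 7.51 and 37.7 CPM in VDD_1 and VDD_3 and at 7.15 to 29.1 CPM in VDS. VDD_1 lay near the lowest VDS liver and VDD_3 lay between VDS and the 4. Mfap4, a microfibril protein, was at 3.73 to 7.99 CPM in the 4 and 0.624 to 1.96 CPM in the 8, and the crosslinking enzyme Loxl1 at 10.1 to 21.3 and 1.03 to 7.4 CPM. The exception was fibronectin (Fn1), a glycoprotein that hepatocytes secrete into plasma, at 1777 to 3014 CPM in the 4 and 3073 to 4386 CPM in the 8. As Fn1 made up most of the counts of the list, the summed level of the list, 2536 to 4569 CPM in the 4 and 3376 to 4955 CPM in the 8, ran against its median. Of 15 basement membrane genes, 7 were higher, among them Col4a4, Lama2 and Nid1, and 1, Col18a1, was lower.

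Markers of stellate and endothelial cells mostly overlapped, and part of the bile duct markers were higher. The counts of these lists stand against 4.06% of all genes higher and 3.45% lower, a background to which 1 higher of 15 stellate markers is close. Of 15 stellate cell markers 1 was higher, Cygb (cytoglobin), at 37, 20.7, 20.1 and 15.9 CPM in the 4 and 5.43 to 9.23 CPM in the 8, and 2 were lower, Ecm1 and Vipr1. Without VDD_6, or without VDS_1, 3 stellate markers were higher. Pdgfrb overlapped at 22.7 to 50.2 and 12.9 to 24.3 CPM. Lrat and Reln, defining markers of quiescent stellate cells, had differences of -0.08 and 0.01, and the list summed to 482 to 770.1 CPM in the 4 and 512 to 620.3 CPM in the 8. Of 16 endothelial markers 2 were higher, Cd34 at 11.6, 5.84, 5.89 and 5.41 CPM in the 4 and 0.59 to 2.62 CPM in the 8, and Pecam1 with a difference of 0.41. Stab2, Clec4g and Lyve1, markers of sinusoidal endothelium, overlapped with differences of -0.23, -0.28 and 0.44. Of 10 cholangiocyte and progenitor markers tested, 4 were higher, among them Epcam at 3.1 to 7.67 CPM in the 4 and 0.631 to 2.52 CPM in the 8, against 4.06% of all genes, while Krt19 overlapped at 1.47 to 5.27 and 0.568 to 3.51 CPM. The list summed to 84.7 to 162 CPM in the 4 and 51.8 to 89.4 CPM in the 8, and without strand 2 of the 10 were higher.

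Macrophage genes included some that were higher and some that were lower. Of 14 genes of infiltrating and lipid-associated macrophages, 7 were higher and 0 lower, against 4.06% and 3.45% of all genes (median difference 1.48), and they summed to 159 to 432 CPM in the 4 livers and 85.8 to 134 CPM in the 8. Without VDD_2 only 13 reached the minimum of 12 counts, and 7 of those were higher, with a median difference of 1.63. At a mean of at least 50 counts 10 were tested and 4 were higher, with a median difference of 0.77. Genes near 0 in the 8, such as Gpnmb and Trem2, reached the minimum only through the 4, so their counts are no support. Beside Gpnmb and Trem2, Mmp12, macrophage elastase, was at 17.2, 2.27, 2.31 and 0.886 CPM in the 4 and 0.0715 to 0.839 CPM in the 8, and the chemokine receptor Cx3cr1 at 14.98, 5.08, 5.73 and 4.48 and 0.206 to 1.93 CPM. VDD_2 was the highest liver for both. Of 12 Kupffer cell markers, 0 were higher and 2 lower, Cd163 and Timd4, the phosphatidylserine receptor, at 1.95 to 2.3 CPM in the 4 and 2.86 to 9.44 CPM in the 8. Clec4f, C1qa and Adgre1 overlapped, with differences of -0.63, -0.03 and 0.13, and the list summed to 232 to 566 CPM in the 4 and 277 to 519 CPM in the 8. Among 7 dendritic cell genes 1 was higher, the transcription factor Spib. Of 14 lymphocyte markers 4 could be tested, with 0 higher and 0 lower, and of 8 neutrophil markers 0, the latter summing to 1.24 to 10.02 CPM in the 4 and 0.0687 to 4.15 CPM in the 8. Haemoglobin and other erythroid markers summed to 268 to 622 CPM and 237 to 1374 CPM, and of 12 markers of neighbouring tissues 1 could be tested. Without VDD_2, 4 of the 12 Kupffer cell markers were lower, and without VDD_6 4 of the 7 dendritic cell genes were higher. The part of changed cell numbers in these differences was not tested.

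**Figure D4:**
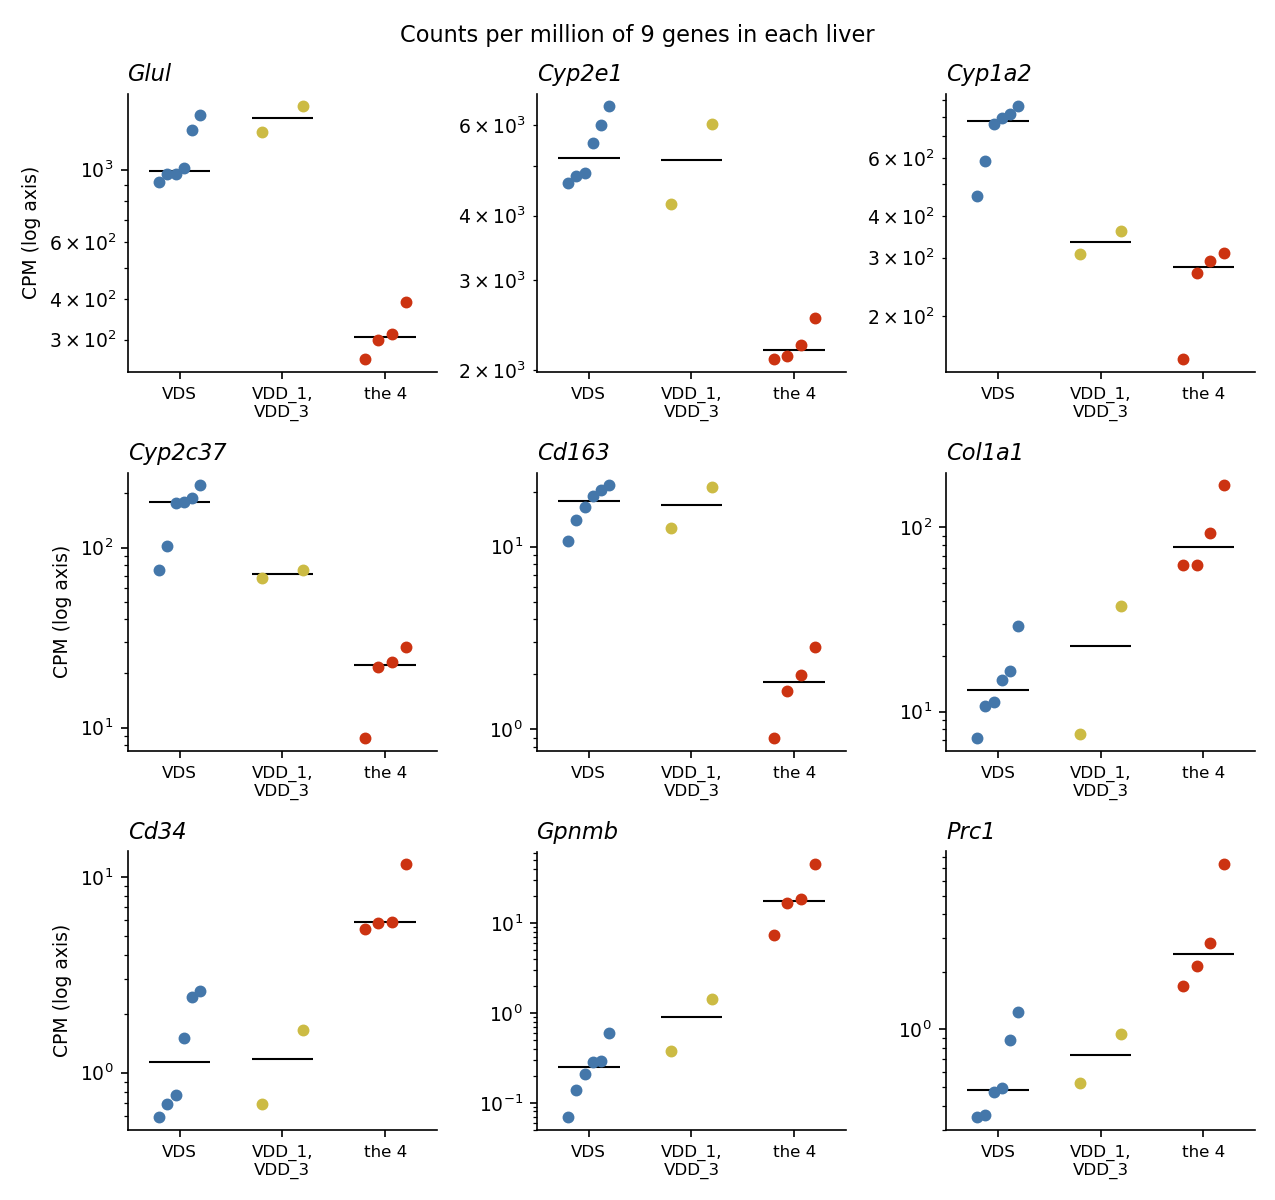
CPM (vertical axes, logarithmic) of 9 genes in each liver, by VDS (blue, 6 livers), VDD_1 and VDD_3 (yellow) and the 4 chosen livers (red), with a bar at each median and points set from low to high. The 4 lie apart from the other 8 for all of them but Cyp1a2, for which VDD_1, at 307 CPM, overlaps the 4.

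Part of the cell division genes, which build and sort the mitotic spindle, were higher. Of 26 mitosis genes tested, 12 were higher and 0 lower, against 4.06% and 3.45% of all genes, with a median difference of 1.55, and they summed to 225 CPM in VDD_2, 48.4 to 62.3 CPM in VDD_4, VDD_5 and VDD_6, and 19.5 to 34.9 CPM in the 8. Only 21 reached the minimum of 12 counts when VDD_2 was left out, so the others passed the minimum only with the counts of VDD_2, one of the 4, and their counts are no support. Without VDD_2, 12 of the 21 were higher, with a median difference of 1.25. These 21 could still have reached the minimum through VDD_4, VDD_5 and VDD_6, so their count is limited in the same way. Only 2 of the list averaged 50 counts or more, and both were higher. Cdc20, an activator of the anaphase-promoting complex, was at 16.4, 5.35, 2.26 and 2 CPM in the 4 and 0 to 1.26 CPM in the 8, and Prc1, which bundles spindle microtubules, at 7.31, 2.81, 2.16 and 1.68 and 0.347 to 1.24 CPM. Knstrn and Aurkb, with differences of medians of 2.23 and 2.07, overlapped, since VDD_1 exceeded VDD_6 for both. Of 17 S phase genes 1 was higher, Uhrf1, at 4.59, 1.3, 2 and 1.54 CPM in the 4 and 0 to 1.2 CPM in the 8. Without VDD_5, 3 S phase genes were higher.

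Most lipid genes of the lists overlapped, and some were lower. The counts of the lists that follow stand against 4.06% of all genes higher and 3.45% lower. Of 12 genes of de novo lipogenesis, 0 were higher and 3 lower, with a median difference of -0.70. Thrsp, a regulator of lipogenesis, was at 45, 40.6, 45.4 and 96.3 CPM in the 4, 300.3 and 399 CPM in VDD_1 and VDD_3 and 193 to 681 CPM in VDS. Leaving out VDD_2, VDD_5 or VDS_5 made 5, 5 and 6 of the 12 lower. Acacb, which makes malonyl-CoA at mitochondria, overlapped at 116 to 177 and 174 to 701 CPM. Of 13 lipid droplet genes 0 were higher and 3 lower, with a median difference of -0.30. The droplet protein Cidec went the other way and overlapped. It was at 24.9, 12.4, 9.89 and 6.25 CPM in the 4, 3.66 and 6.78 CPM in VDD_1 and VDD_3 and 0.296 to 2.91 CPM in VDS, so that all 6 VDD livers exceeded VDS. Of 18 cholesterol synthesis genes 3 were lower, among them squalene epoxidase (Sqle) at 25.5 to 49.3 CPM in the 4 and 52 to 233 CPM in the 8. Of 15 fatty acid oxidation genes 2 were lower. Only 1 was lower without VDD_3 or VDD_5, with DESeq2's size factors, in the counts that ignore the strand or at a mean of at least 50 counts. Leaving out VDD_6 or VDS_3 made 6 and 5 of the cholesterol genes lower. Of 11 genes of bile acid synthesis and transport, 4 were lower and 1 higher, the efflux pump Abcc4 (1.49). Cyp8b1, the 12-alpha-hydroxylase of cholic acid synthesis, was at 145, 320.3, 254 and 194 CPM in the 4 and 449 to 708 CPM in the 8. Hamp, the iron hormone hepcidin, and Hpx, haemopexin, were the 2 higher genes among 15 acute phase genes, at 473 to 529.9 against 63.5 to 378 CPM and 4608 to 5999 against 2310 to 3987 CPM. Of 17 hepatocyte products and factors 0 were higher and 2 lower (median difference -0.11), or 1 lower in the counts that ignore the strand and at a mean of at least 50 counts. These 2 were the factors Cebpa and Nr1h4, the bile acid receptor, lower by 1.33 and 1.48 times, and the other 15 overlapped.

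Other lists showed few genes apart from the 8. None of the 15 interferon-stimulated genes, 14 stress response genes, 10 heat shock genes, 10 immediate early genes, 8 annexins, 6 fetal liver genes or 12 mitochondrially encoded genes was higher or lower in the 4. Without VDD_2, 2 interferon-stimulated genes were lower, without VDD_4 2 mitochondrially encoded genes were lower, and without VDD_5 2 annexins were higher. Of 10 antioxidant genes 3 were higher, of 9 p53 targets 1, of 10 imprinted genes 2, and of 16 circadian clock genes 2 were lower, against 4.06% of all genes higher and 3.45% lower. In the counts that ignore the strand 1 circadian gene was lower. At a mean of at least 50 counts, 7 p53 targets were tested and 0 were higher. Of 10 genes of fatty acid uptake 1 was higher, Lpl. Leaving out VDS_2 made 2 of them higher, and leaving out VDD_4 made 1 lower.

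VDD_1 and VDD_3 were then placed on genes they had no part in choosing, the 648 genes for which the 4 livers lay above all 6 VDS livers (5.2% of 12452) and the 551 for which they lay below (4.42%). VDD_1 was within the VDS range for 62.4% of these 1199 genes, between both ranges for 11.3%, past the VDS livers on the side away from the 4 for 15.7%, and with the 4 or past them for 10.6%. For VDD_3 the shares were 52.6%, 16.3%, 15.6% and 15.5%. On a scale with the VDS median at 0 and the median of the 4 at 1, the median position was -0.02 for VDD_1 and 0.16 for VDD_3, and over the 648 higher genes 0.24 for VDD_3. Among the 551 lower genes alone, VDD_3 was within the VDS range for 270 and past VDS for 124. Without VDS_1, which also changes the genes chosen, its share within the VDS range was 42.3%, and no test is attached to single livers.

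**Figure D5:**
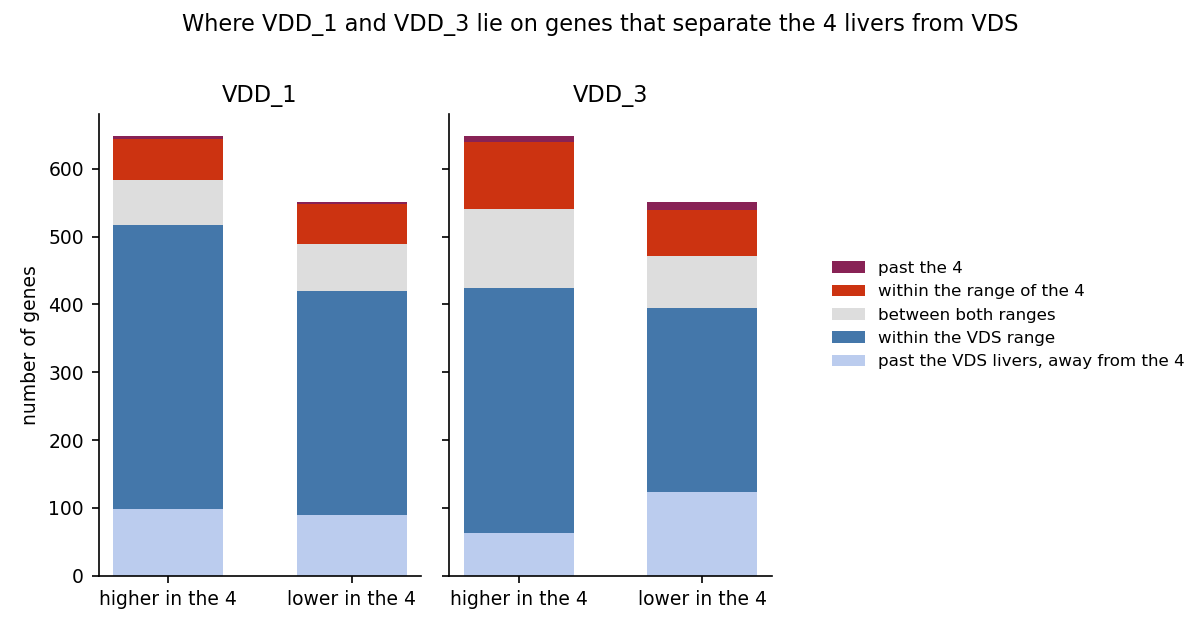
Number of genes (vertical axis) on which VDD_1 and VDD_3 lie within the VDS range, past it, between both ranges, or with the 4 livers, among 648 genes higher and 551 genes lower in the 4 than in all VDS livers. The largest block is the VDS range in each of the 4 bars.

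VDD_1 and VDD_3 both lay with the 4 for 48 of the 1199 genes, 29 higher and 19 lower, and both within the VDS range for 453. Their positions were 0.00 and 0.00 for Lrtm2, -0.24 and -0.39 for Glul, -0.08 and 0.15 for Cd163 and 0.24 and -0.18 for Cyp2e1, where VDD_1 lay outside the VDS range toward the 4 for Cyp2e1 and VDD_3 outside it away from the 4 for Glul. For Col1a1 they were -0.30 and 0.60, for Gpnmb 0.08 and 0.37, for Mup15 0.22 and 0.21 and for Mup7 0.18 and 0.37. The genes called between VDD and VDS were chosen with VDD_1 and VDD_3 among the VDD livers, and Cidec is named because all 6 VDD livers exceeded VDS, so a place toward the 4 is in large part fixed by that choice and nothing is read from it. The positions of VDD_1 and VDD_3 were 0.52 and 0.90 (Mup1), 0.44 and 0.62 (Mup12), 0.36 and 0.72 (Cidec), 0.26 and 0.83 (Abhd2), 0.85 and 0.57 (Tceal9) and 0.91 and 0.75 (Cyp1a2).

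VDD against VDS (6 against 6, edgeR quasi-likelihood test) gave 2 genes higher in VDD (0.0161% of 12453) and 3 lower (0.0241%), where a call needs a log2-fold change beyond 1 in size together with an adjusted p of less than 0.05. Abhd2, a lipid hydrolase, rose by a log2-fold change of 1.19 ± 0.19 (SE, adjusted p = 0.0453), with 731, 529, 517 and 396 CPM in the 4, 277 and 451 CPM in VDD_1 and VDD_3 and 156 to 240.5 CPM in VDS. Tceal9 rose by 1.11 ± 0.153 (adjusted p = 0.0269), from 3.84 to 5.14 CPM in VDS to 12.6, 9.47, 7.94 and 9.74 CPM in the 4 and 8.46 and 6.7 CPM in VDD_1 and VDD_3. In all 6 VDD livers both genes exceeded every VDS liver. The diet effect of Abhd2 lost its call with DESeq2's size factors (adjusted p = 0.0522) and in the counts that ignore the strand (adjusted p = 0.0554), and the diet effect of Tceal9 lost its call with the replicate number as a block (adjusted p = 0.0625). Cyp1a2 was lower, with a log2-fold change of -1.35 ± 0.199, as were Mup1 (-3.32 ± 0.493) and Mup12 (-3.17 ± 0.462), each at an adjusted p of 0.0269. Mup12 was at 0.783, 2.81, 1.58 and 2.19 CPM in the 4, 9.22 and 5.57 CPM in VDD_1 and VDD_3 and 16.6 to 49.2 CPM in VDS. Of these 5 genes, 0 were among the 505 higher genes and 1, Mup12, among the 429 lower.

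Leading genes of the contrast between the 4 and the 8, Mup12 excepted, did not pass this test. Lrtm2 had a log2-fold change of 7.04 (adjusted p = 0.0627), Gpnmb 5.72 ± 0.986 (adjusted p = 0.0627), Mup7 -2.95 ± 0.881 (adjusted p = 0.13), Col1a1 2.27 ± 0.534 (adjusted p = 0.0883) and Glul -0.69 ± 0.427 (adjusted p = 0.456), where the value for Lrtm2, at 0 in most VDS livers, depends on the prior count. The count of calls rested on single livers: it was 260 without VDD_1 and 94 without VDD_3, 7 without VDD_2, 12 without VDS_2, 1 without VDS_6, and 0 without any 1 of VDD_4, VDD_5, VDD_6, VDS_3, VDS_4 and VDS_5 (edgeR, 1547 to 1755 genes at an unadjusted p under 0.05). DESeq2's Wald test called 253 of all 12453 genes, 218 higher and 35 lower, and 151 of the 505 higher and 19 of the 429 lower genes were among them. Since 4 of the 6 VDD livers are the chosen ones, these tests are not independent of the choice.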

How the data were processed

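RNA was measured in 12 livers, 6 VDD and 6 VDS, as 1 library per mouse from ribosome-depleted total RNA. The authors trimmed the reads, aligned them to the mouse genome (mm10) with STAR and deposited the raw fragment counts of each gene (GENCODE M15, GRCm38), 1 column without strand and 1 for each strand, with no normalization. The reverse-strand counts were used, which held 92.7% to 95.8% of the stranded counts, because the methods do not name the column. Of 52636 genes, 52489 were matched to GENCODE M21 for symbols and positions.

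The 4 livers, the gene lists and the genes looked at were chosen with earlier results of these data known, and the mice with a recorded liver weight are those so marked in the study's supplement. Genes averaging 12 or more counts per library were kept. CPM used TMM factors, and log2 CPM a prior count of 2. Named genes were Cyp2a4, Lrtm2 and Frmd5, the 12 largest gaps in each direction, the genes called between VDD and VDS, and up to 4 genes of a list with the largest absolute difference, with other members named to define a list or as exceptions chosen after their values were seen. The test was edgeR's quasi-likelihood fit (4.0.16, R 4.3.3) with Benjamini-Hochberg adjustment over all genes. On simulated counts for 12453 genes it recovered 200 of 200 genes changed by a log2-fold change of 2, with 6 false calls. The simulation gave every gene a dispersion (spread between libraries beyond counting) of 0.1 and the same change in every VDD liver. The VDD livers here are split, so this recovery does not measure the power of the test on them. Alternatives were DESeq2 1.42.0, limma 3.58.1 (voom), DESeq2 size factors, counts without strand, other filters, a replicate block, each library left out and each set of mice alone. Promoter windows came from RefSeq (25 of 32 genes looked up had one). Mice are the replicates, and p-values measure the spread between mice. Figures were drawn with matplotlib 3.10.9. Values of 2 genes that the rule named are not reported here.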

Additional observations from a re-analysis of the deposited data

Results flagged for a closer look

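Among 113 genes named above or in its lists, screened in VDD and in VDS with Dixon's test for 1 liver far from the other 5 of its group, 33 values stood apart, where chance gives about 1 in 20 groups and genes of a cell type move together. VDD_2 was far above the other VDD livers for the division genes Cdc20 (16.4 CPM), Knstrn (8.40 CPM), Prc1 (7.31 CPM) and Uhrf1 (4.59 CPM), for the macrophage genes Mmp12 (17.2 CPM), Cx3cr1 (14.98 CPM), Adgre1 (41.5 CPM) and C1qa (76.9 CPM), and for the clock genes Dbp (100.004 CPM) and Ciart (4.02 CPM). VDD_2 was far below the other VDD livers for the male-biased Elovl3 (13.8 CPM, the others 241 to 335). VDD_1 stood apart for Mup1 (11.9 CPM, the other VDD livers 0.679 to 4.42) and VDD_3 for Socs2 (43.3 CPM, the others 8.96 to 19.6).

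Among VDS livers, VDS_2 was far above the rest for Thrsp (681 CPM), Ntrk2 (22.4 CPM), Marco (10.9 CPM), Timd4 (9.44 CPM), Pnpla5 (7.26 CPM) and Trem2 (0.885 CPM). VDS_5 stood apart for Dbp (82.1 CPM), Ciart (7.08 CPM), Tceal9 (5.14 CPM), Spib (0.764 CPM) and Tinag (0.208 CPM, the others at 0), VDS_1 for Mmp12 (0.839 CPM), VDS_4 for Knstrn (0.832 CPM) and VDS_6 for Igfbp3 (27.1 CPM). A few counts set the rest, with the other livers of the group at 0 or nearly so: Cyp3a41a in VDD_1 (0.0631 CPM) and VDS_3 (0.0687 CPM), Tsix in VDD_1 (0.126 CPM), Xist in VDD_5 (0.0526 CPM) and VDS_6 (1.72 CPM) and Sult2a1 in VDS_6 (0.286 CPM). No screened gene had a diet effect that differed between the 2 sets of mice (liver weight recorded or not) at an adjusted p-value under 0.05 (edgeR interaction term), while 11 of 12453 genes did and 1122 had an unadjusted p under 0.05.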

How the results depend on the processing

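The same 4 livers were chosen at 50 or 200 raw counts, at 1 CPM and without strand. The counts of 505 higher and 429 lower genes stayed within 1.5 times under other size factors, without strand, with no filter (616 and 443) and with a mean of at least 50 (375 and 328), and ranged over 529 to 690 and 471 to 632 with 1 library left out, when fewer livers have to be apart. With 1 library left out, the share of genes on which VDD_1 lay in the VDS range ran from 52.7% to 62.9%, and that of VDD_3 from 42.3% to 54.2%. Of 195 genes followed, 0 of those that did not overlap changed direction under the alternatives run on them. With 1 library left out or 1 set of mice alone, the absence of overlap all but fixes that direction in advance, so nothing is read from it. Taking each set of mice alone, and counting the lists without VDD_2 or VDS_6, were added after seeing the data: the difference moved by more than the spread among VDS livers for 105 genes in the mice with no recorded weight, where VDD_2 is the only one of the 4, and for 14 in the others.

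The count of 5 genes called between VDD and VDS was the result that moved most: 253 with DESeq2's Wald test, 13 with limma-voom, 70 with no filter, 536 in the mice with a recorded liver weight alone, where all 3 VDD livers are among the 4, 0 in the other 5 mice (473 genes at an unadjusted p under 0.05, edgeR), and 0 to 260 with 1 library left out. The cause was not tested. Replicate numbers name different mice, and same-numbered livers did not deviate together (r from -0.08 to 0.10 across genes), so they share only a number; a fit with the replicate number as a block called 17 genes, 11 higher and 6 lower. Low counts limit genes such as Tinag and Inava, whose levels in the 8 livers rest on a few fragments.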
